A study of Mus musculus with 4 samples.

Results

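The genes described are 9 receptors with which leukocytes hold on to other cells and to matrix: the integrin chains Itgam, Itgax, Itgal, Itgb2, Itga4, Itga5 and Itgb1, the selectin ligand Selplg and the hyaluronan receptor Cd44. They were taken by name, and all 9 were found among the 43629 gene identifiers of the count tables. The study asked what the loss of CAF-1, the chaperone that places histones H3 and H4 on newly made DNA, does to blood progenitors. CD117+ hematopoietic stem and progenitor cells (HSPCs) came from C57Bl/6 mice whose Chaf1b gene, which codes for a CAF-1 subunit, is flanked by loxP sites (Chaf1b fl/fl). Cells of both groups were spinfected with a MIGR1 retrovirus, grown in StemSpan SFEM II and sorted for the eGFP of the virus, and RNA was taken at 48 h. The 2 control libraries came from cells given empty MIGR1, and the 2 Chaf1b-deleted libraries from cells given MIGR1 with Cre recombinase, which cuts out the floxed sequence. The medium of both groups held SCF at 50 ng/mL, IL-3 at 10 ng/mL, LDL and, by the sample labels, IL-6 at 20 ng/mL, a dose for which the study's methods give another value. Every cell that received virus in the deleted group also made Cre, so effects of Cre itself and of the loss of Chaf1b cannot be told apart. Reads counted on genes numbered 22736626 and 25409926 in control replicates 1 and 2, and 23539015 and 18468637 in Chaf1b-deleted replicates 1 and 2. Levels are given as CPM, a gene's counts for each 1000000 counted on genes, and at these depths 3 counts are worth between 0.118 and 0.162 CPM.

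An integrin is a pair of 1 alpha and 1 beta chain, and which alpha chain joins the beta chain sets what the receptor binds. The beta2 chain is made in leukocytes, where with its alpha chains it binds ICAM proteins on endothelium and fragments of complement, while beta1 integrins with alpha4 or alpha5 bind VCAM-1 and fibronectin and help to keep HSPCs in the bone marrow. The sialomucin made from Selplg is caught by selectins when a leukocyte rolls along a vessel wall, and CD44 binds the matrix sugar hyaluronan. Myeloid progenitors that mature toward neutrophils and monocytes put more beta2 integrin on their surface.

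Chaf1b itself, the floxed gene, stood at 80.3 and 57.9 CPM in the control libraries and at 16.1 and 17.9 CPM in the deleted ones. Both deleted libraries lay far below both controls. The change on the log2 scale (log2 fold change) was -2.01 (standard error, SE, 0.25; adjusted p = 0.0330, edgeR quasi-likelihood test, n = 2 libraries per group), and -2.03 (adjusted p = 0.0251) without deleted replicate 1. The call was lost when at least 10 counts were asked for in every library and when the replicate number was added as a block. In both settings 0 genes were called lower. Chaf1b passed in edgeR's exact test (adjusted p = 7.25e-08) and in DESeq2 (adjusted p = 1.70e-09). Leaving out 1 library, its log2 fold change ranged from -2.24 (without control replicate 2) to -1.74 (without control replicate 1). Chaf1a, the partner subunit, had 120.3, 84.9, 80.4 and 68.4 CPM in the same order (log2 fold change -0.43, adjusted p = 0.569). Rbbp4, the most abundant CAF-1 subunit gene, had 244 and 208 CPM in controls and 253 and 249 CPM in deleted cells; 18.05% of its exonic bases overlap genes on the opposite strand.

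Chaf1b-deleted replicate 1 stood apart from the other 3 libraries. The X-inactivation transcript Xist had 336 CPM in it and between 1.14 and 1.30 CPM in the others, and the Y-linked gene Kdm5d had 0 counts there against 45.3 to 52.7 CPM elsewhere. The 20 interferon-stimulated genes listed summed to 2466 CPM in that library, to 339 and 369.9 CPM in the controls and to 409.5 CPM in deleted replicate 2, and their median log2 fold change of 2.69 was 0.09 without the library that stood apart. The ubiquitin-like Isg15, which had the largest difference among those whose groups did not overlap, had 1.28 and 2.05 CPM in controls and 43.1 and 2.98 CPM in deleted cells, and the RNA sensor Ddx58 was the most abundant. The log2 fold change of each receptor and the median of each list below are therefore also given without deleted replicate 1, from a fit in which the lone deleted library is assumed to vary as the controls do. By Xist and Kdm5d, deleted replicate 1 came from female cells and the other 3 libraries from male cells. It thus had another donor, and effects of sex and donor cannot be told apart in it. Beyond this, the labels do not say that libraries came from separate animals or cultures. The p-values therefore measure the spread between these libraries, which may be partly technical.

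Of the 16500 genes that passed the expression filter, all 9 receptors among them, a gene was called when it changed by at least 1.5-fold with an adjusted p under 0.05. By the edgeR quasi-likelihood test, 61 genes were called higher (0.370% of those tested) and 1 lower (0.00606%, Chaf1b). None of the 9 receptors was called in either direction, while at an unadjusted p under 0.05 2 were higher (Itgax and Cd44) and 1 was lower (Itga4), against 9.15% of all genes tested in the higher and 3.10% in the lower direction. With edgeR's exact test, which called 3.14% of genes higher and 0.212% lower, 1 receptor was called higher, and with DESeq2, which called 2.85% higher and 0.194% lower, also 1. In both tests it was Itgax. Without deleted replicate 1, where 0.721% of 17336 genes were called higher and 0.0346% lower, 0 of the 9 were called by the edgeR quasi-likelihood test, and 3 were higher at an unadjusted p under 0.05 (Itgax, Itgal and Cd44) and 0 lower, against 8.36% and 4.26% of all genes tested in that fit. The number of genes called over all those tested depended on each library: 125 were called higher without deleted replicate 1, 324 without deleted replicate 2, 280 without control replicate 1 and 331 without control replicate 2, and 6, 42, 42 and 24 were called lower.

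In CPM, both deleted libraries lay above both controls for 4 receptors (Itgam, Itgax, Itgb2 and Cd44) and below them for 2 (Itga4 and Itgb1), which is 44.4% and 22.2% of the 9. Over all genes tested the shares were 21.4% and 22.9%, so the lower share was close to the background. Scaled by TMM, which corrects for differences in composition between libraries, the 4 higher genes were Itgax, Itgal, Itgb2 and Cd44 and the 1 lower gene was Itga4, against 22.3% and 21.4% of all genes tested. The median log2 fold change of the 9 was 0.38, against -0.03 over all genes tested. Without deleted replicate 1 these medians were 0.22 and -0.02. The cells were measured in bulk, so fewer cells of a type and less RNA per cell cannot be told apart.

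**Figure D1:**
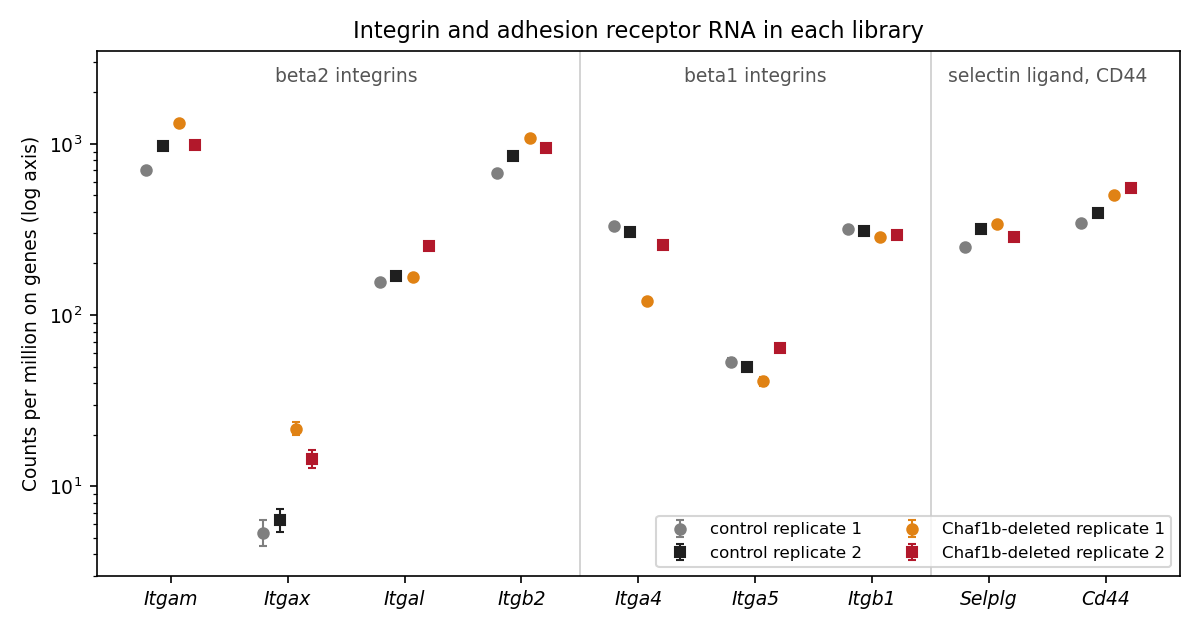
Level of the 9 receptor genes in each library, in CPM on a log axis; each point is 1 library, bars are 95% Wilson intervals for counting error and are mostly smaller than the points. Itgax stands at 5.32 and 6.34 CPM in controls against 21.7 and 14.4 CPM in deleted cells, while Itga4 is low chiefly in deleted replicate 1 (121 CPM).

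Among the beta2 integrins, Itgb2 (ENSMUSG00000000290, chr10:76992997-77028453 of mm9) codes for CD18, the beta chain that all 4 alpha chains of the family share. It had 680.0 and 853 CPM in control replicates 1 and 2 and 1079 and 942 CPM in the deleted libraries. The deleted libraries lay above the controls, and the nearest libraries of the groups were closer to each other than the controls were. On the log2 scale the difference was 0.43 (SE 0.27, adjusted p = 0.578, edgeR) and 0.22 (adjusted p = 0.707) without deleted replicate 1.

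Itgam (ENSMUSG00000030786) codes for CD11b, which with CD18 forms Mac-1, the complement receptor of neutrophils and macrophages. Its levels were 706 and 975 CPM in controls and 1317 and 989 CPM in deleted cells. Deleted replicate 1 was the highest library, and deleted replicate 2 was near control replicate 2 and was below it after TMM scaling (932 against 959 CPM). With all 4 libraries the log2 fold change was 0.50 (SE 0.31, adjusted p = 0.578, edgeR), and it was 0.15 (SE 0.24, adjusted p = 0.815) without deleted replicate 1. Itgam and Itgb2 followed each other closely over the 4 libraries: by distance between centred log2 profiles, Itgb2 stood at place 58 among the 16499 other genes tested.

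Itgax (ENSMUSG00000030789) codes for CD11c, the alpha chain used to recognise dendritic cells and also found on monocytes and activated neutrophils. It was counted at 5.32 CPM in control replicate 1 (95% Wilson interval 4.45 to 6.36), 6.34 CPM in control replicate 2 (5.43 to 7.39), 21.7 CPM in deleted replicate 1 (19.9 to 23.6) and 14.4 CPM in deleted replicate 2 (12.8 to 16.2), and such intervals cover counting error only. Both deleted libraries were above both controls, and they also differed from each other beyond counting error. The mean of the deleted libraries was 3.09 times that of the controls. Its log2 fold change of 1.68 (SE 0.35, adjusted p = 0.115, edgeR quasi-likelihood) was larger in size than that of 96.2% of genes tested, and it missed the threshold for a call. It passed in edgeR's exact test (adjusted p = 0.00673) and in DESeq2 (adjusted p = 0.00117). Without deleted replicate 1 it was 1.22 (SE 0.37, adjusted p = 0.220) and without control replicate 1 it was 1.56 (adjusted p = 0.0596). It passed without deleted replicate 2 (2.03, adjusted p = 0.0293) and without control replicate 2 (1.79, adjusted p = 0.0176). Of the 31-base stretches of its exons 13.9% have a further copy in mm9, and reads from such stretches can be lost from the count.

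Itgam and Itgax are neighbours on the forward strand, at chr7:135206154-135271674 and chr7:135273061-135294171 of mm9, with 1386 bases between them, and Itgad follows 3718 bases further on. Per kilobase of merged exons, Itgax stood at 0.0119 and 0.0102 of the level of Itgam in controls and at 0.0259 and 0.0230 in deleted cells. The ratio was thus higher in both deleted libraries, including the one where Itgam lay close to a control. Itgad, the alpha chain CD11d, had at most 0.484 CPM in any library.

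The stretch before a gene's start is shown for both neighbours, since the pair lie side by side and Itgax differed more between the groups. The sequences are the 250 bases before the RefSeq start on GRCm38.p6, on the gene's strand, for Itgam at chr7:128062390-128062639 and for Itgax at chr7:128129300-128129549. Capitals mark the letters GAGGAA or their reverse complement TTCCTC, the core of the box read by the myeloid factor PU.1, and TGTGGT or ACCACA, the core read by RUNX factors; the motifs do not overlap.
Itgam: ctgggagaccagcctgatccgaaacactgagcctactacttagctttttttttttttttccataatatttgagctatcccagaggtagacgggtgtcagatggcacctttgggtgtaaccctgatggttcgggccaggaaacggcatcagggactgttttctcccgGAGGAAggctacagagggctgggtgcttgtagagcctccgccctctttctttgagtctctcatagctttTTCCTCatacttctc
Itgax: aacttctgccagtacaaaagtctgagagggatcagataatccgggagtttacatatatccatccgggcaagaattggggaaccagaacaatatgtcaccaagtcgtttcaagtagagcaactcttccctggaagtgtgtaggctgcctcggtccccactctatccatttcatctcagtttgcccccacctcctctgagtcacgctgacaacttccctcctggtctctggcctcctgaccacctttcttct
The PU.1 letters occur 2 times before Itgam, the nearer copy between 15 and 10 bases before the start, and neither motif occurs in the Itgax stretch. Of all 32851 RefSeq promoters of this length, 23.3% hold the PU.1 letters and 14.0% the RUNX letters, on either strand. Promoter entries were matched for 6 of the 9 receptors, and Itgal, Itgb2 and Selplg had none; 4 of the 6 hold the PU.1 letters and 1 the RUNX letters. A match is a description of the letters and not of binding.

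Itgal (ENSMUSG00000030830, chr7:134439774-134478651 of mm9) codes for CD11a, which with CD18 forms LFA-1, the ICAM receptor best known from lymphocytes. It had 156 and 169.7 CPM in controls and 167 and 253 CPM in deleted cells. Here deleted replicate 2 was the high library, the reverse of Itgam and Itgax, and the groups overlapped in CPM. Its log2 fold change was 0.38 (SE 0.22, adjusted p = 0.556, edgeR) and 0.56 (adjusted p = 0.310) without deleted replicate 1.

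The alpha chains that join CD18 can be set against each other per kilobase of exon. Itgam made up 81.1% and 84.4% of their summed level in controls and 86.7% and 78.2% in deleted cells, and Itgal 17.9% and 14.7% in controls and 20.0% in deleted replicate 2, with its lowest share in deleted replicate 1. The share of Itgax was 0.963% and 0.865% in controls and 2.25% and 1.79% in deleted cells, and thus higher in both deleted libraries. The summed alpha chains stood at 0.613 and 0.648 of the level of Itgb2 in controls and at 0.673 and 0.642 in deleted cells, a narrow range in which the groups overlapped. Itgb2l, the gene of the neutrophil protein pactolus and the most abundant of the other beta subunit genes, had 403 and 482 CPM in controls and 573 and 456 CPM in deleted cells (log2 fold change 0.26, and -0.04 without deleted replicate 1).

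The cells known for these receptors were followed by their markers. The 9 neutrophil markers summed to 45279 and 52687 CPM in controls and to 66122 and 49734 CPM in deleted cells, with the calprotectin gene S100a9 the most abundant. Of the 9, 1 was called higher, the chemokine receptor Cxcr2, against 0.370% of all genes. It had 126 and 105 CPM in controls and 297 and 357 CPM in deleted cells. Without overlap 4 were higher (Cxcr2, Ltf, Mmp8 and Mmp9), against 21.4% of all genes. The exact test called 3 of the 9 higher and DESeq2 4, against 3.14% and 2.85% of all genes. The granule protease genes Mmp9 and Mmp8 had 135 and 44.4 CPM and 397 and 249.7 CPM in controls, and 664 and 506 CPM and 1282 and 728 CPM in deleted cells. Other abundant members of the list showed no like difference: without deleted replicate 1 the log2 fold change was -0.01 for S100a9, -0.30 for S100a8, -0.32 for Ngp and -0.14 for Camp, against 0.35, 0.07, -0.09 and 0.34 with all libraries. The list's median log2 fold change was 0.92, and 0.27 without deleted replicate 1. The 8 monocyte and macrophage markers summed to 914, 1546, 2031 and 1053 CPM, led by Ly6c2, with none called by edgeR's quasi-likelihood test. At an unadjusted p under 0.05 2 of the 8 were higher, against 9.15% of all genes, and the exact test and DESeq2 each called 1 higher, against 3.14% and 2.85%. The median of the monocyte list was 0.18 and turned to -0.31 without deleted replicate 1. The 9 dendritic cell markers summed to 136, 649, 841 and 356 CPM, led by the MHC class II chaperone Cd74, which was high in control replicate 2 (487 CPM) and deleted replicate 1 (566 CPM). Of the 8 of them that were tested, 1 was called higher, against 0.370% of all genes: the cytokine receptor Flt3, which is also a progenitor marker. It had 4.66 and 5.31 CPM in controls and 19.3 and 22.7 CPM in deleted cells. Their median log2 fold change was 0.76, and without deleted replicate 1 it was 1.08 with 2 called higher, against 0.721% of all genes, the other being the chemokine receptor Ccr7. The call of Cxcr2 was lost without control replicate 2 (log2 fold change 1.38, adjusted p = 0.0917). No marker of these 3 lists was at 0 in all libraries, and Cd209a had at most 0.425 CPM. The part of such cells in the levels of Itgam, Itgb2 and Itgax was not tested.

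**Figure D2:**
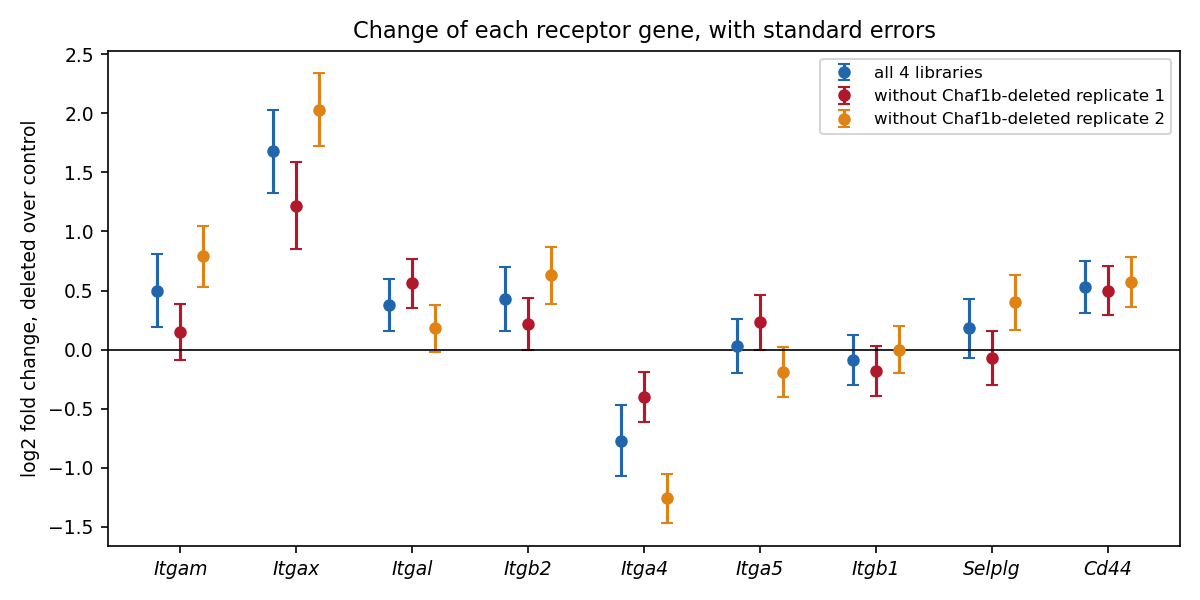
log2 fold change of each receptor gene, Chaf1b-deleted over control, from edgeR's quasi-likelihood fit with all 4 libraries and without each deleted library; bars are standard errors. Itgax is above 1 in each fit (1.68, 1.22 and 2.03), Cd44 hardly moves (0.53, 0.50 and 0.57), and Itga4 ranges from -0.40 to -1.26 depending on which deleted library is left out.

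Among the beta1 integrins, Itgb1 (ENSMUSG00000025809, chr8:131209554-131257100 of mm9) codes for CD29, the beta chain that pairs with the widest set of alpha chains. It was the steadiest of the 9, with 316 and 311 CPM in controls and 285 and 293 CPM in deleted cells. The deleted libraries lay just below the controls in CPM and overlapped them after TMM scaling. A log2 fold change of -0.09 (SE 0.21, adjusted p = 0.905, edgeR) became -0.18 (adjusted p = 0.748) without deleted replicate 1 and 0.00 without deleted replicate 2.

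Itga4 (ENSMUSG00000027009) codes for CD49d, which with CD29 forms VLA-4, the receptor through which HSPCs hold on to VCAM-1 and fibronectin in the marrow. Its levels were 331 and 304 CPM in controls and 121 and 255 CPM in deleted cells. Both deleted libraries were below both controls, and deleted replicate 1 had less than deleted replicate 2 by 0.88 on the log2 scale after TMM scaling, a gap wider than in 81.5% of genes tested. Across groups the log2 fold change was -0.77 (SE 0.30, adjusted p = 0.361, edgeR quasi-likelihood). It was -0.40 (SE 0.21, adjusted p = 0.473) without deleted replicate 1. Without deleted replicate 2 it was -1.26 (adjusted p = 0.0399), which passed the threshold. At chr2:79095583-79173280 of mm9, 8.04% of its exonic bases are shared with Cerkl on the opposite strand and 11.1% of their 31-base stretches have a further copy in mm9, and the strand setting of the counting is not given in the sources used here.

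The stretch before Itga4, on the forward strand at chr2:79255176-79255425 of GRCm38.p6, is shown because Itga4 had the lowest log2 fold change of the 9 (RefSeq; capitals as above).
Itga4: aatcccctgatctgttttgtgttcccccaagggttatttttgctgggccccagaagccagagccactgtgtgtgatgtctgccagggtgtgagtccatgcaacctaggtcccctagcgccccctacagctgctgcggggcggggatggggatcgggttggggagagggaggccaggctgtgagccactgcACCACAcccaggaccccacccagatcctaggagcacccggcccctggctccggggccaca
It holds the RUNX letters 1 time, between 60 and 55 bases before the start, and no PU.1 letters.

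Itga5 (ENSMUSG00000000555, chr15:103174720-103197194 of mm9) codes for CD49e, the alpha chain of the classical fibronectin receptor. It had 53.2 and 49.9 CPM in controls and 41.0 and 64.2 CPM in deleted cells, so that the controls lay between the deleted libraries. Between groups the log2 fold change was 0.03 (SE 0.23, adjusted p = 0.969, edgeR), and it was 0.23 (adjusted p = 0.693) without deleted replicate 1, -0.19 without deleted replicate 2 and -0.03 without control replicate 2.

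Among the 12 alpha chains that can pair with CD29, counted per kilobase of exon, Itga4 took 42.5% and 34.7% of the summed level in controls and 21.0% and 28.0% in deleted cells. Itga6, a laminin receptor chain and the most abundant of the other alpha subunits, took 17.3% and 22.3% in controls and 34.2% and 30.2% in deleted cells, and Itga5 21.8% and 18.2% against 22.7% and 22.4%. Itga4 was thus the leading chain of the 12 in both controls and Itga6 in deleted replicate 1. In deleted replicate 2 the lead of Itga6 over Itga4 was small against the 11.1% of Itga4's stretches that have a further copy. Shares and order also depend on the merged exon lengths used, 13978 bases for Itga4 and 9025 for Itga6. Before division by length, Itga4 and Itga6 had 121 and 127 CPM in deleted replicate 1, and 255 and 178 CPM in deleted replicate 2. Itga6 rested on 87.2 and 126 CPM in controls and 127 and 178 CPM in deleted cells, a log2 fold change of 0.53 that was not called (adjusted p = 0.443, edgeR) and was 0.66 without deleted replicate 1. The level of Itga4 over that of Itgb1 was 0.306 and 0.285 in controls and 0.124 and 0.254 in deleted cells. Itgb7, which also pairs with Itga4, ranged from 29.2 to 58.5 CPM with overlapping groups.

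**Figure D3:**
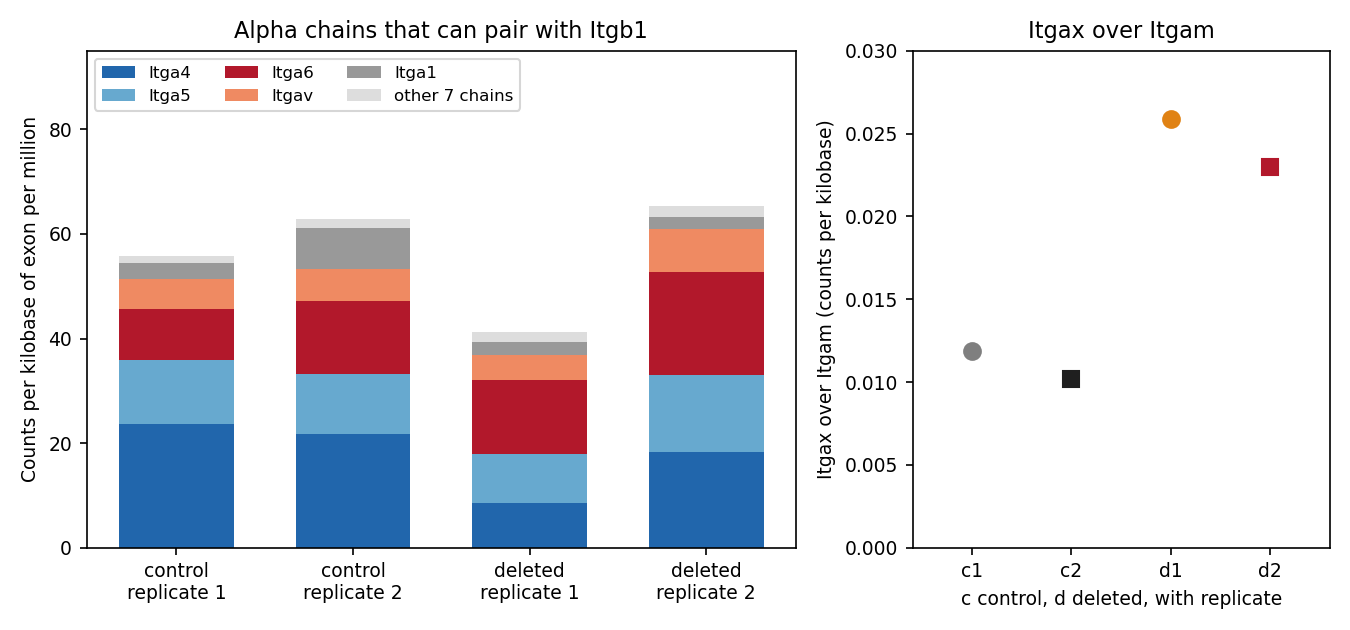
Summed level of the 12 alpha chains that can pair with Itgb1, in CPM per kilobase of exon, with 5 chains apart and the other 7 together (left), and level of Itgax over that of Itgam (right; c1 and c2 control, d1 and d2 deleted replicates). Itga4 takes 42.5% and 34.7% of the bar in controls and 21.0% and 28.0% in deleted cells, and the ratio of Itgax to Itgam is 0.0119 and 0.0102 against 0.0259 and 0.0230.

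Selplg (ENSMUSG00000048163, chr5:114267807-114280510 of mm9) codes for PSGL-1, the main P-selectin ligand of leukocytes. It had 249 and 320.1 CPM in controls and 340.5 and 287 CPM in deleted cells. The groups overlapped, and the log2 fold change of 0.18 (SE 0.25, adjusted p = 0.829, edgeR) turned to -0.07 (adjusted p = 0.914) without deleted replicate 1. PSGL-1 binds only after sugars and sulfate have been added to it, and of the 10 genes listed for these steps none was called by edgeR's quasi-likelihood test, its exact test or DESeq2, with 3 higher at an unadjusted p under 0.05, against 9.15% of all genes. Their median log2 fold change was 0.19, and 0.03 without deleted replicate 1. The most abundant was the galactosyltransferase B4galt1, with 134 and 149 CPM in controls and 132 and 145 CPM in deleted cells. The sialyltransferase St3gal6 had the largest difference among those whose groups did not overlap, from 1.94 and 0.984 CPM to 3.70 and 5.69 CPM (log2 fold change 1.69, adjusted p = 0.227, edgeR; 1.88 without deleted replicate 1), and 26.37% of its exonic bases overlap Dcbld2 on the opposite strand.

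Cd44 (ENSMUSG00000005087), the hyaluronan receptor, had 344 and 397 CPM in controls and 500.3 and 554 CPM in deleted cells. The deleted libraries were close to each other, with a log2 gap of 0.05 after TMM scaling that was smaller than in all but 6.95% of genes tested, and both were above both controls. For Cd44 the log2 fold change was 0.53 (SE 0.22, adjusted p = 0.385, edgeR) and 0.50 (adjusted p = 0.363) without deleted replicate 1, so it did not rest on that library, and it missed the threshold in the 3 tests. The mean of the deleted libraries was 1.42 times that of the controls. Cd44 lies at chr2:102651298-102741822 of mm9 on the reverse strand. The 250 bases before its RefSeq start, on that strand at chr2:102901666-102901915 of GRCm38.p6, are shown because Cd44 was above both controls by a like amount in both deleted libraries (capitals as above).
Cd44: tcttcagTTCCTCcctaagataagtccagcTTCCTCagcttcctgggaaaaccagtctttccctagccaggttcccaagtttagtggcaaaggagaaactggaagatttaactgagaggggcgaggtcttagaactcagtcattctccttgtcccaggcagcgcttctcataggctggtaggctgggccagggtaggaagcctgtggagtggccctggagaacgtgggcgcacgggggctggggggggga
They hold the PU.1 letters 2 times, both over 200 bases before the start, and no RUNX letters.

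Of 8 genes that make hyaluronan, bind it or tie CD44 to the cell skeleton, 6 were tested and none was called by the 3 tests, with 1 lower at an unadjusted p under 0.05, against 3.10% of all genes. In CPM 3 of the 6 were lower and 1 was higher without overlap, against 22.9% and 21.4% of all genes. With TMM scaling 2 were lower and 1 was higher, against 21.4% and 22.3%. Their median log2 fold change was -0.41, and -0.47 over the 7 tested in the fit without deleted replicate 1. The actin linker Msn was the most abundant, with 797 and 815 CPM in controls and 881 and 875 CPM in deleted cells. Hmmr, a hyaluronan-binding protein of the mitotic spindle, had 179 and 189 CPM in controls and 123 and 122 CPM in deleted cells (log2 fold change -0.55, adjusted p = 0.317, edgeR; -0.67 without deleted replicate 1). The synthase genes Has1 and Has2 were too low to be tested.

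Levels can be ordered per kilobase of merged exons. In control replicate 1 the order from high to low was Itgb2 (223), Itgam (111), Selplg (95.7), Itgb1 (77.6), Cd44 (50.3), Itgal (24.4), Itga4 (23.7), Itga5 (12.2) and Itgax (1.32), in CPM per kilobase. In deleted replicate 2 it was Itgb2 (309), Itgam (155), Selplg (110.1), Cd44 (80.9), Itgb1 (71.9), Itgal (39.6), Itga4 (18.3), Itga5 (14.7) and Itgax (3.56). Cd44 thus stood below Itgb1 in both controls and above it in both deleted libraries. In deleted replicate 1 Cd44 and Itgb1 were close (73.0 against 69.8), and their order there rests on the exon lengths used. Itgam was above Selplg in each of the 4 libraries, although their ranges over all libraries overlapped (111 to 207 against 95.7 to 131). Itga4 was above Itga5 in 3 of 4, all but deleted replicate 1 (8.63 against 9.36). These values are close, and 11.1% of Itga4's 31-base stretches have a further copy in mm9, so their order is uncertain. The order of Itgal and Itga4 in control replicate 1 is uncertain for the same reason. Itgb2 was above 99.1% or more of the tested genes with a known length in every library, and Itgax was below the median of these genes in every library. In deleted replicate 1 Itgax was close to that median (5.35 against 5.44). As 13.9% of its stretches have a further copy, the order in that library is uncertain.

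The other genes of the adhesion machinery were counted in lists. Of 20 other integrin subunits, 17 were tested and none was called by edgeR's quasi-likelihood test with all 4 libraries. At an unadjusted p under 0.05 3 were higher and 1 was lower, against 9.15% and 3.10% of all genes, and the exact test called 1 higher and DESeq2 0, against 3.14% and 2.85%. Their median log2 fold change was 0.26. Without deleted replicate 1 it was 0.36, over the 19 subunits tested in that fit. The platelet integrin chain Itga2b had 69.6 and 62.5 CPM in controls and 86.8 and 159 CPM in deleted cells. Its log2 fold change was 0.90 (adjusted p = 0.224, edgeR quasi-likelihood), and 1.19 without deleted replicate 1. The partner of Itga2b, Itgb3, had 77.8, 69.7, 87.5 and 126 CPM. The 7 megakaryocyte markers, which mark the cells that carry this integrin, summed to 32.9 and 38.6 CPM in controls and 67.9 and 111 CPM in deleted cells, led by Pf4, with 5 of the 6 tested higher without overlap, against 21.4% of all genes, and a median log2 fold change of 1.33, or 1.64 without deleted replicate 1. None of them was called by the quasi-likelihood test, with 3 higher at an unadjusted p under 0.05 (9.15% of all genes) and 3 called higher by the exact test (3.14%) and by DESeq2 (2.85%). Without deleted replicate 1 the quasi-likelihood test called 2 higher, against 0.721% of all genes. The part of such cells in Itga2b was not tested. Itga3, a laminin receptor chain, had 0.308 and 0.0787 CPM in controls and 1.27 and 2.06 CPM in deleted cells, the largest difference of the list (log2 fold change 3.10, SE 0.75, adjusted p = 0.154, edgeR; exact test 0.00437; 3.32 without deleted replicate 1), which rested on 7 and 2 counts in controls and 30 and 38 in deleted cells.

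Among 11 ligands of these integrins, 9 were tested and none was called by the quasi-likelihood test, while 3 were higher at an unadjusted p under 0.05 (9.15% of all genes) and 2 were called higher by the exact test (3.14%) and 2 by DESeq2 (2.85%). Their median log2 fold change was 0.16, and 0.35 without deleted replicate 1. F11r, which codes for the junction protein JAM-A, a ligand of LFA-1, had 8.49 and 8.15 CPM in controls and 24.2 and 25.0 CPM in deleted cells (log2 fold change 1.59, SE 0.26, adjusted p = 0.0635, edgeR; adjusted p = 0.0838 without deleted replicate 1). Icam1, a ligand of LFA-1 and Mac-1, had 19.7 and 20.6 CPM in controls and 45.8 and 42.6 CPM in deleted cells (log2 fold change 1.16, adjusted p = 0.0947, edgeR; 1.00 without deleted replicate 1), with 19.33% of its exonic bases shared with a gene on the opposite strand. These are the 2 genes that the other tests called, and Icam1 is named here after its values were seen. The most abundant, the matrix protein gene Thbs1, had 2848 and 6986 CPM in controls and 5209 and 4244 CPM in deleted cells, with the controls on either side of the deleted libraries. Icam4 had 0 counts in every library, and all of its exonic bases overlap another annotated gene on the opposite strand.

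Inside the cell, talin, kindlin and the small GTPase Rap1 switch integrins on. Of 14 genes of this step 13 were tested and none was called by the 3 tests, with 1 higher at an unadjusted p under 0.05 (9.15% of all genes) and a median log2 fold change of 0.16, which was -0.07 without deleted replicate 1. The actin crosslinker Flna was the most abundant, with 2407 to 2676 CPM and overlapping groups, and Rassf5, a Rap1 effector, had 104 and 128 CPM in controls and 169.8 and 156 CPM in deleted cells. Of 15 genes of the adhesion complex and its kinases, 9 were higher without overlap and 0 lower, against 21.4% and 22.9% of all genes, with a median of 0.37 and 0.28 without deleted replicate 1. None was called by the quasi-likelihood or the exact test, with 5 higher at an unadjusted p under 0.05 (9.15% of all genes) and 1 called higher by DESeq2 (2.85%). That gene was Fgr, a Src family kinase downstream of Mac-1, with 66.1 and 71.3 CPM in controls and 122 and 117 CPM in deleted cells (log2 fold change 0.83, adjusted p = 0.161, edgeR; 0.69 without deleted replicate 1). The kinase gene Syk was the most abundant, with 381 and 402 CPM in controls and 491 and 504 CPM in deleted cells. Ilk stayed under 1 CPM, and 89.69% of its exonic bases overlap genes on the opposite strand, so its count is uncertain.

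Of 10 other surface mucins and adhesion receptors, none was called by the 3 tests, and 2 were higher and 1 was lower at an unadjusted p under 0.05 (9.15% and 3.10% of all genes). In CPM 5 were higher and 1 was lower without overlap (21.4% and 22.9% over all genes), and the median log2 fold change was 0.20, and 0.05 without deleted replicate 1. The lower one was the most abundant, Spn, which codes for CD43, the large sialomucin of leukocytes. It had 754 and 819.8 CPM in controls and 545 and 471 CPM in deleted cells (log2 fold change -0.60, SE 0.25, adjusted p = 0.394, edgeR; -0.82 without deleted replicate 1). Esam, an endothelial and stem cell adhesion protein, had 0.572 and 0.590 CPM in controls and 1.06 and 2.06 CPM in deleted cells.

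**Figure D4:**
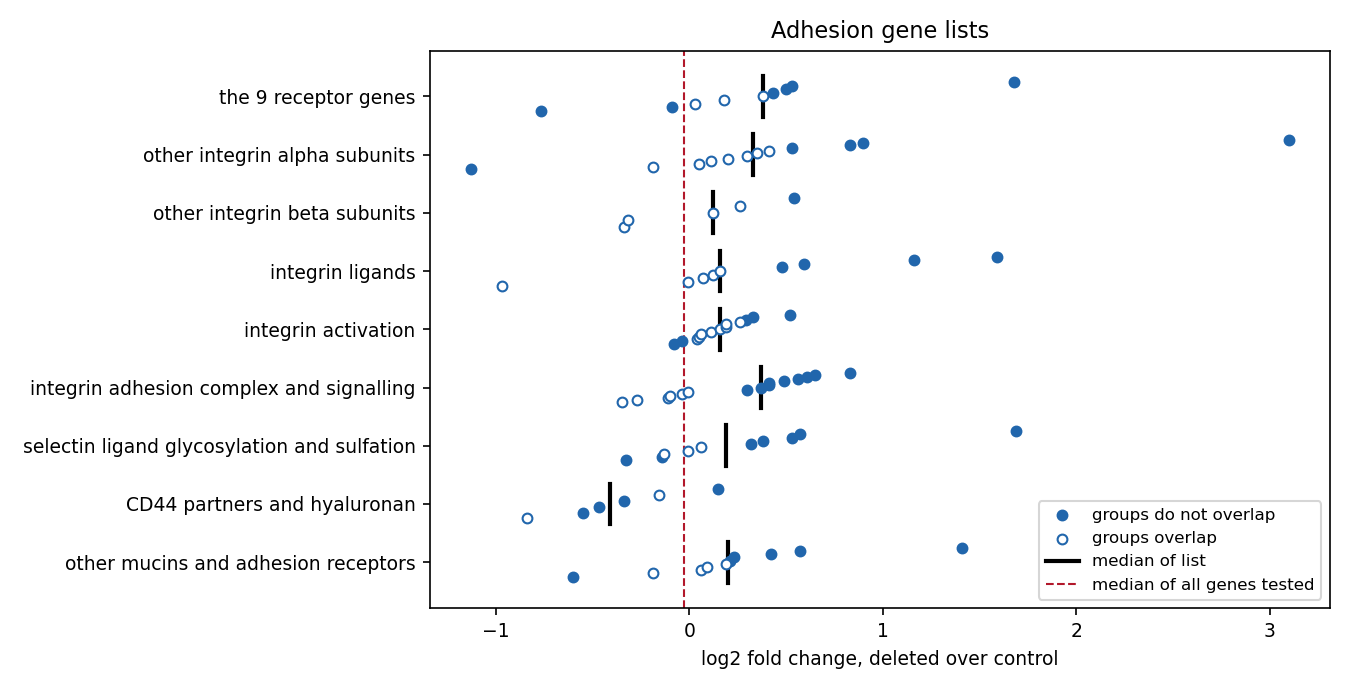
log2 fold change, Chaf1b-deleted over control, of each tested gene in the adhesion lists, from edgeR with all 4 libraries; filled points are genes whose groups do not overlap in CPM, black bars are list medians and the dashed line is the median of all 16500 genes tested (-0.03). The list of CD44 partners and hyaluronan genes has a median of -0.41, and the other lists shown have medians from 0.12 to 0.38.

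Genes with the most similar profile over the 4 libraries were sought by the distance between centred TMM log2 levels among all genes tested, with no reading of shared function or control. For Itgam they were RP23-242C19.5 (distance 0.035) and Sik1 (0.056), against a median distance of 0.970. For Itgax they were H2afx (0.045), with 126 and 151 CPM in controls and 491 and 332 CPM in deleted cells, and Plk2 (0.075), against a median of 1.837. For Itgal they were Slc16a8 (0.038) and Snx30 (0.050), and for Itgb2 Ckap4 (0.046) and Hpse (0.049). For Itga4 they were Gm15817 (0.049) and Alms1 (0.057). Itga5 was closest to Gm16062 (0.043) and Rc3h2 (0.049), and Itgb1 to Ube2d1 (0.018) and Papss1 (0.023). Selplg was closest to B3galt4 (0.051) and Cyth1 (0.052), a regulator of beta2 integrins that is also in the activation list, and Cd44 to 7SK (0.047) and Jag1 (0.051). With 4 libraries such distances are a description only.

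The progenitor label was checked against its markers. The 8 stem and progenitor markers summed to 1554 and 1733 CPM in controls and 1524 and 1748 CPM in deleted cells, led by the pan-leukocyte gene Ptprc, and Kit, which codes for the CD117 used to isolate the cells, had 109 and 124 CPM in controls and 95.6 and 124 CPM in deleted cells. The markers went both ways. Of the 8, 1 was called higher (Flt3), against 0.370% of all genes. At an unadjusted p under 0.05, 3 were higher (Flt3, Cd34 and Ly6a) and 1 was lower (Myb), against 9.15% and 3.10% of all genes. The median log2 fold change was 0.17, or 0.31 without deleted replicate 1. Myb, a transcription factor of progenitors, had 475 and 492 CPM in controls and 298 and 335 CPM in deleted cells (log2 fold change -0.59, adjusted p = 0.313, edgeR; -0.61 without deleted replicate 1; 13.0% of its exonic bases overlap a gene on the opposite strand), and Cd34 had 76.9 and 77.6 CPM in controls and 93.4 and 134 CPM in deleted cells. Ly6a rested on deleted replicate 1 (63.9 CPM), with a log2 fold change of 2.50, and 0.55 without it. The neutrophil sums given above exceed the sums of these markers in all libraries, but sums over unlike genes do not give shares of cells.

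Mast cell and basophil markers summed to between 429.9 and 699.9 CPM, led by Cpa3, with control replicate 2 lowest, and erythroid markers to between 42.7 and 84.0 CPM, led by Gata1. B cell markers summed to 17.5 and 21.4 CPM in controls and 33.2 and 28.1 CPM in deleted cells, led by Cd79b, with 6 of 6 higher without overlap, against 21.4% of all genes. T and NK cell markers summed to 6.16 and 3.74 CPM in controls and 11.4 and 9.04 CPM in deleted cells, led by Lck, and stroma and endothelium markers to 27.8 and 13.2 CPM and to 29.4 and 50.8 CPM, led by Pdgfrb. The sums of these last 3 lists were thus higher in both deleted libraries. The T and NK cell sums were nearly all Lck, with 5.19 and 3.35 CPM in controls and 10.4 and 8.39 CPM in deleted cells. Pdgfrb had 17.5 and 9.25 CPM in controls and 14.6 and 33.9 CPM in deleted cells, with overlapping groups. Of the 6 stroma markers, 4 were higher without overlap, against 21.4% of all genes. The median log2 fold change was 0.49 for the mast cell list, -0.38 for the erythroid, 0.90 for the B cell and 1.22 for the stroma list, and 0.54, -0.07, 0.95 and 1.24 without deleted replicate 1; Lck, alone tested among the T and NK cell markers, had 1.18 and 0.89. None of these 5 lists held a gene called by the quasi-likelihood test, with 1, 1, 1, 1 and 3 genes higher at an unadjusted p under 0.05 (9.15% of all genes). The exact test and DESeq2 each called 1 mast cell and 1 stroma marker higher (3.14% and 2.85% of all genes). The defining T cell genes Cd3e and Cd3g had at most 0.382 CPM. The part of these cells in the integrin levels was not tested.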

How the data were processed

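The authors made stranded, ribo-depleted total RNA libraries, used STAR for alignment (mm9) and HTSeq-count for gene counts; each deposited table holds the raw counts of 1 library. The annotation release and the strand setting of the counting are not given in the sources used here. Of the reads placed at a single site, 35.8% to 48.3% fell in no gene, and these were left out. Gene models and names came from the NCBIM37 annotation, and list symbols were matched for 201 of 201 genes, 1 through a RefSeq synonym.

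Counts were tested with edgeR 4.0.16 in R 4.3.3 (limma 3.58.1): expression filter with a minimum count of 10, TMM factors from 0.925 to 1.06, and the quasi-likelihood test between the groups with no covariate, Benjamini-Hochberg adjusted over all 16500 genes. The standard error was taken from the fold change and the F statistic. Alternatives were edgeR's exact test, DESeq2 1.42.0, other scaling and filters, a block, no fold threshold and each library left out; the functions were tested on simulated data. Libraries of 1 group differed beyond sampling noise (chi-square per degree of freedom 44.4 and 66.9).

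Genes named are the 9 receptors, Chaf1b and Chaf1a, in each pathway list the called genes, the most abundant and the one with the largest change among those whose groups do not overlap, in each marker list the most abundant and those at 0, and the 2 closest profiles. Icam1, Icam4, Itga2b, Itgad, Itgb7, Ilk, Has1, Has2, Cxcr2, Ltf, Mmp8, Mmp9, S100a8, Ngp, Camp, Flt3, Ccr7, Cd209a, Cd34, Ly6a, Myb, Cd3e, Cd3g and Kit fall outside this rule and were chosen once their values had been seen. 1 pathway list is not reported here. The receptors and lists were chosen with earlier results of these data known.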

Additional observations from a re-analysis of the deposited data

How the results depend on the processing

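The number of genes called higher, 61 with edgeR's quasi-likelihood test, was 27 with DESeq2's size factors, 30 with library size only, 808 with no filter on low counts (where the median log2 fold change of all genes was -0.13, against -0.03), 3 with at least 10 counts in every library, 518 with edgeR's exact test and 471 with DESeq2. The number called lower, 1 in the main test, was 79 with no filter, 0 with at least 10 counts in every library, 35 with the exact test and 32 with DESeq2. With the replicate number as a block, 14 genes were called higher and 0 lower. The labels do not say that a number marks a shared animal, and replicate 1 of the control and of the deleted group differed in sex. The correlation between groups of the difference between replicates 1 and 2 was 0.0133. With no fold threshold the counts were 61 and 1. Leaving out 1 library gave 125 to 331 genes higher and 6 to 42 lower, where the lone library is assumed to vary like the other group. The causes of these differences were not tested.

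Of the receptors, 0 were called higher in the main test and 1, Itgax, with no filter (log2 fold change 1.71), with the exact test and with DESeq2. Leaving out 1 library gave 0 to 1 receptors higher (Itgax without control replicate 2 or deleted replicate 2) and 0 to 1 lower (Itga4 without deleted replicate 2). Of 99 receptor values under 11 alternatives, 89 kept direction and side of the threshold, 6 newly passed it and 4 changed sign. Leaving out 1 library, Itga5 ranged from -0.19 to 0.23, Itgb1 from -0.18 to 0.00 and Selplg from -0.07 to 0.40. The changes of sign were Itga5 without control replicate 2 (-0.03) or deleted replicate 2 (-0.19), Itgb1 without deleted replicate 2 (0.00) and Selplg without deleted replicate 1 (-0.07). With 2 libraries per group, Cd44 (unadjusted p = 0.0438) and Itgb2 (0.146) missed the threshold adjusted over all genes, which does not show that their levels did not differ.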
